A study of Mus musculus with 9 samples.

Results

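The genes described here are 36 genes of protein folding and quality control in the endoplasmic reticulum (ER), followed in poly-A RNA of 3 mouse hematopoietic cell lines. They comprise the sensors and regulators of the unfolded protein response, the resident chaperones and their co-chaperones, the enzymes of disulfide formation, the factors of ER-associated degradation and several genes of the ER membrane and of traffic out of it. They were taken by symbol from the 54347 rows of the count table, in which 37 rows carried the 36 symbols: *Ddit3* had a second row, with 0 counts in all 9 libraries. All 36 remaining rows were among the 13082 rows that passed the filter on low counts, so each member has a test.

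The 3 lines were Hox-WT, labelled as a WT hematopoietic progenitor, Hox-URE, labelled as a hematopoietic progenitor of genotype UREd/d, and URE-AML (B22 in the labels), labelled as AML blast-like and of the same genotype UREd/d. The URE is the upstream regulatory element of *Spi1*, an enhancer of the gene that encodes the transcription factor PU.1. Both Hox lines were made from c-Kit+ bone marrow cells with an estrogen-dependent Hoxb8, whereas URE-AML was grown out of leukemic blasts of a URE-deleted mouse, so Hox-URE and URE-AML differ in immortalization as well as in stage. All 3 were cultured in IMDM with 20% FCS, IL-3, IL-6 and SCF at 10 ng/ml each and 1 µM ß-estradiol per the labels; the study's methods give another concentration of ß-estradiol. Each was 1 line with 3 libraries, and nothing says that the libraries came from separate derivations, so p-values measure the spread between these libraries, which may be technical, and genotype or stage cannot be told apart from the line.

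The ER folds proteins destined for membranes, granules and secretion. When unfolded proteins accumulate, 3 membrane sensors respond: IRE1α (*Ern1*) cuts an intron from *Xbp1* mRNA so that an active transcription factor is made, ATF6 (*Atf6*) is released by proteolysis and enters the nucleus, and PERK (*Eif2ak3*) phosphorylates a translation initiation factor, which slows translation and favours ATF4, CHOP (*Ddit3*) and the phosphatase subunit GADD34 (*Ppp1r15a*). ATF6 and XBP1 act through the ER stress response element (ERSE), a CCAAT box and a CCACG box at a fixed distance, in promoters of chaperone genes.

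Promoter windows from RefSeq (GRCm38.p6, 250 bases before to 50 after a gene's start) were found for 31 of the 36 members. They were searched on both strands for the ERSE, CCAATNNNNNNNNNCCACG. Only exact matches were taken, so diverged copies and copies outside the window are neither counted nor marked. It was present in 9 of the 31 members (29%) and in 39 of all 32851 promoter windows (0.119%). The matches are shown in the direction of the motif, with the letters that the motif fixes in capitals, because they show what these 9 promoters have in common.
Hspa5: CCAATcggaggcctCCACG
Hsp90b1, farther match: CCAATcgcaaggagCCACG
Hsp90b1, nearer match: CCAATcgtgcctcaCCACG
Calr: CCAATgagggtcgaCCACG
Canx: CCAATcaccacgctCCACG
Pdia6: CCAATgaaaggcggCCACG
Creld2: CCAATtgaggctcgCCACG
Dnajc3: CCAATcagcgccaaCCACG
Syvn1: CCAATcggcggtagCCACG
Derl3: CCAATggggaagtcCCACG
All 10 matches began between 44 and 212 bases before the start, 4 of them on the strand opposite to the gene. The related ERSE-II, the letters ATTGG and CCACG with 1 base between them, was found in *Herpud1* and *Dnajb11* (0.0365% of all windows), the UPRE letters TGACGTGG in *Sec24d* (0.676%) and the ATF4-type letters TGATGCAA in *Herpud1* (0.895%). No match overlapped a match of another of these motifs. The members with a window but no match to any of these letters included *Ern1*, *Xbp1*, *Dnajb9*, *Ero1l* and *Edem1*.

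The 250 bases upstream of 4 members are given to show where the motifs lie, with motif letters in capitals and each sequence 5′ to 3′ on the strand of its gene. *Hspa5* (chr2:34771840-34772089, forward strand) is the textbook ERSE promoter. *Hsp90b1* (chr10:86705445-86705694, reverse strand) held 2 matches. *Calr* (chr8:84846932-84847181, reverse strand) was the member with the highest level per kilobase of transcript in each line, and *Herpud1* (chr8:94386179-94386428, forward strand) held both an ERSE-II and the ATF4-type letters.
Hspa5: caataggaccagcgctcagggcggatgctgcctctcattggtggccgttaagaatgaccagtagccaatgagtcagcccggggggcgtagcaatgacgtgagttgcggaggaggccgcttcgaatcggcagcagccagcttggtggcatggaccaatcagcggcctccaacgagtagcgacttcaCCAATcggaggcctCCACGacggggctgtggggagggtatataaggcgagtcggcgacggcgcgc
Hsp90b1: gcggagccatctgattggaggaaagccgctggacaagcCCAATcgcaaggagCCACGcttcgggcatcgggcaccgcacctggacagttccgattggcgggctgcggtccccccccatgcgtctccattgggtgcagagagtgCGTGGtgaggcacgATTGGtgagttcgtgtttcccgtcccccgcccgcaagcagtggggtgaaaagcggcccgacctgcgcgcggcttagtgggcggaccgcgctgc
Calr: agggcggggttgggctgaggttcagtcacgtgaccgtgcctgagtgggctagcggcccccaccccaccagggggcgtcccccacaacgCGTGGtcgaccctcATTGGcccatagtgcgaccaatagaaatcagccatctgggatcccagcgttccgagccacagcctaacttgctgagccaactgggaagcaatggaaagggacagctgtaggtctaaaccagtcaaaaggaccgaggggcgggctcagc
Herpud1: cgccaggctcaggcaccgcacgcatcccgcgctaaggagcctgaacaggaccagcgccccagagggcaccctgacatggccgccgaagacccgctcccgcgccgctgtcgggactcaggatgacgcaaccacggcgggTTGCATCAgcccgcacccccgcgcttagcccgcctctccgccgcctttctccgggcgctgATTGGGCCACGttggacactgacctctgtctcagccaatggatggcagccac

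Total counts were 20331064 to 28588718 per library, and levels are given as CPM, counts scaled by library size and TMM factor. *Spi1* was at 110, 101 and 96.5 CPM in Hox-WT libraries 1 to 3, at 0.0364, 0.0414 and 0 in those of Hox-URE and at 2.5, 5.52 and 6.35 in those of URE-AML, so that Hox-URE lay at least 795-fold below Hox-WT, against a floor of 3 counts per library. *Hoxb8* was at 66, 61.6 and 69.7 CPM in the Hox-WT libraries, 127, 141 and 128 in those of Hox-URE and 0, 0 and 0 in those of URE-AML. Of 5 progenitor markers, *Hoxa9* was at 0 in all libraries, and the mean of *Cd34* was 1430 CPM for Hox-WT, 926 for Hox-URE and 0.0135 for URE-AML, so URE-AML was near 0 for this marker of the progenitors to which it is compared. *Kit*, the marker by which the cells of the Hox lines were isolated, had means of 175 CPM for Hox-WT, 43.0 for Hox-URE and 97.0 for URE-AML.

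Hox-URE had more RNA of all 3 sensors than Hox-WT, together with factors of ER-associated degradation, while the central chaperones *Hspa5* and *Hsp90b1* did not pass the test. Here called means more than 1.5-fold different with an adjusted p below 0.05. Relative to Hox-WT, 19 of 36 members were called higher in Hox-URE and 0 lower by edgeR, where the background over all tested genes was 37.2% called, with 21.3% higher and 15.9% lower. DESeq2 also called 0 members lower, and at an unadjusted p under 0.05 with no fold threshold 1 member (*Hyou1*) was lower. The median log2 fold change was 0.60 over the members and 0 over all tested genes, and 31 of 36 members had a positive value. In 26 members the 3 libraries of the lines did not overlap, which was so for 60.3% of all tested genes. Fewer cells of a kind that makes a given RNA and less of that RNA per cell cannot be told apart in these bulk libraries.

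**Figure D1:**
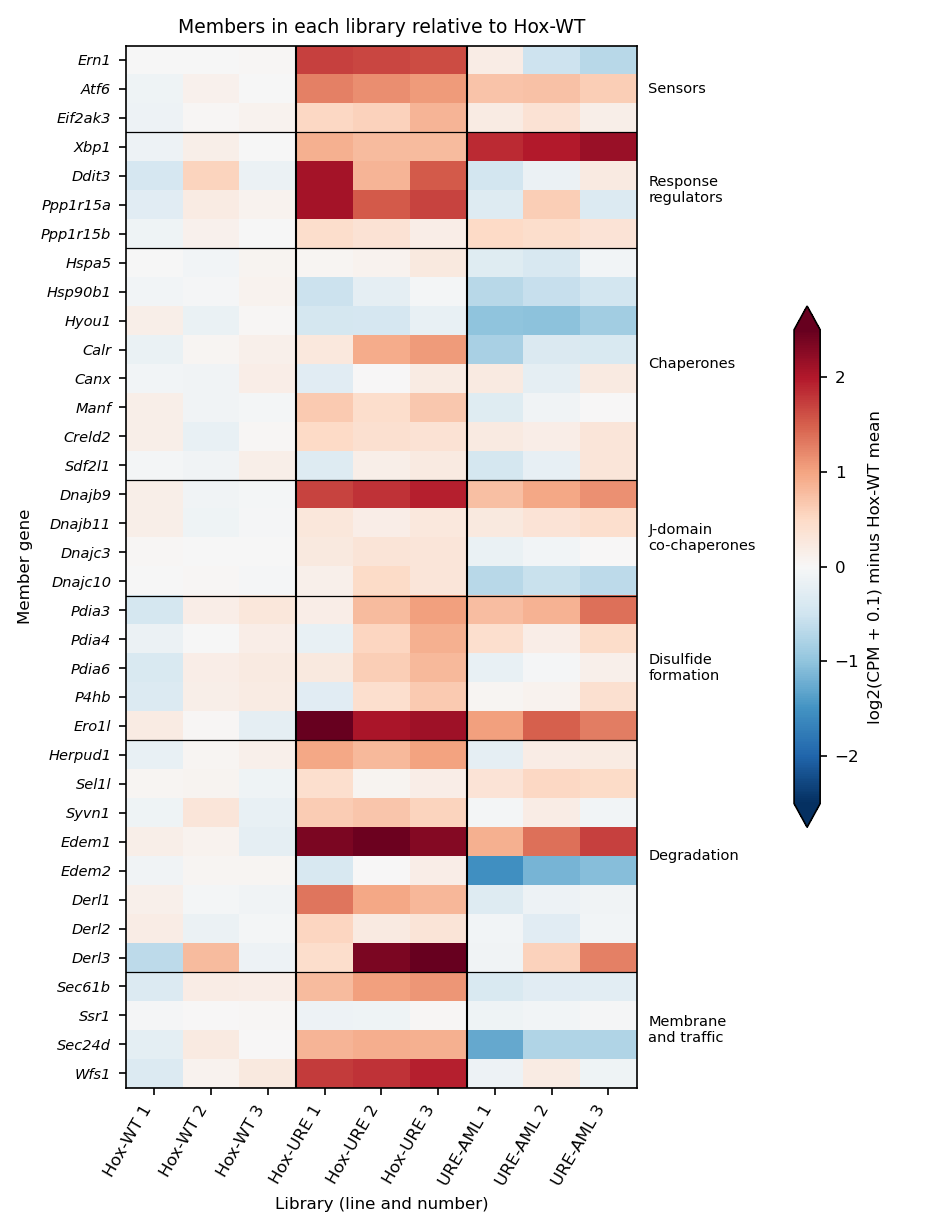
Level of each of the 36 members (rows, by role) in each of the 9 libraries (columns), as log2(CPM + 0.1) minus the mean of the 3 Hox-WT libraries, on a colour scale that ends at -2.5 and 2.5. Sensors, *Ero1l*, *Edem1* and *Wfs1* are red across the Hox-URE libraries, *Xbp1* is darkest in URE-AML, and *Hspa5* and *Ssr1* are pale throughout.

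All 3 sensors were called higher in Hox-URE, beside 21.3% of all tested genes, and gene positions are those of GRCm38. *Ern1* (ENSMUSG00000020715, chr11:106394650-106487852) was at 54.8, 54.5 and 56.3 CPM in the Hox-WT libraries, 180, 175 and 172 in those of Hox-URE and 63.2, 38.7 and 34.1 in those of URE-AML. Its Hox-URE libraries were close together and all above those of both other lines, and the log2 fold change to Hox-WT was 1.67 ± 0.19 (SE, as in all values after ±; adjusted p = 5.3e-05), a level 3.18 times as high. *Atf6* (ENSMUSG00000026663, chr1:170704674-170867771) was at 33, 38 and 35.4 CPM in the Hox-WT libraries, 84.6, 79.1 and 74.2 in those of Hox-URE and 58.3, 58.5 and 54.5 in those of URE-AML. The 3 lines did not overlap, with Hox-URE highest and Hox-WT lowest, and the log2 fold change of Hox-URE against Hox-WT was 1.16 ± 0.09 (adjusted p = 4.49e-06). *Eif2ak3* (ENSMUSG00000031668, chr6:70844515-70905245) was at 16.7, 18.6 and 19.3 CPM in the Hox-WT libraries, 26, 27.2 and 33 in those of Hox-URE and 21, 23.4 and 20 in those of URE-AML, again with Hox-URE highest. Its log2 fold change of 0.66 ± 0.12 (adjusted p = 0.00134) lay near the threshold of 1.5-fold and was no longer called without Hox-URE library 3.

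Of the 4 regulators downstream, 3 (75%) were called higher in Hox-URE, beside 21.3% of all tested genes. *Xbp1* (ENSMUSG00000020484, chr11:5520659-5525893), the transcription factor whose mRNA IRE1α splices, was at 236, 284 and 257 CPM in the Hox-WT libraries, 477, 447 and 449 in those of Hox-URE and 936, 1020 and 1160 in those of URE-AML. Each line stood clear of the others, and the log2 fold change of Hox-URE against Hox-WT was 0.82 ± 0.11 (adjusted p = 0.000131). Counts per gene sum the spliced and the unspliced form, so they do not show how much of the mRNA was spliced. *Ddit3* (ENSMUSG00000025408, chr10:127290774-127296288), which encodes the pro-apoptotic factor CHOP, was low throughout, at 1.12, 2.32 and 1.38 CPM in the Hox-WT libraries, 6.77, 2.86 and 4.65 in those of Hox-URE and 1.09, 1.38 and 1.8 in those of URE-AML. Library 1 of Hox-URE was its highest and library 2 came close to the top Hox-WT library, and the log2 fold change was 1.56 ± 0.39 (adjusted p = 0.00671), or 1.21 without Hox-URE library 1 (adjusted p = 0.0228). *Ppp1r15a*, the inducible phosphatase subunit that restores translation, was at 6.67 to 9.36 CPM in Hox-WT and 23.7 to 35 in Hox-URE, with a log2 fold change of 1.79 ± 0.27 (adjusted p = 0.000338). Its constitutive counterpart *Ppp1r15b* was not called, at 0.33 (adjusted p = 0.0181).

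**Figure D2:**
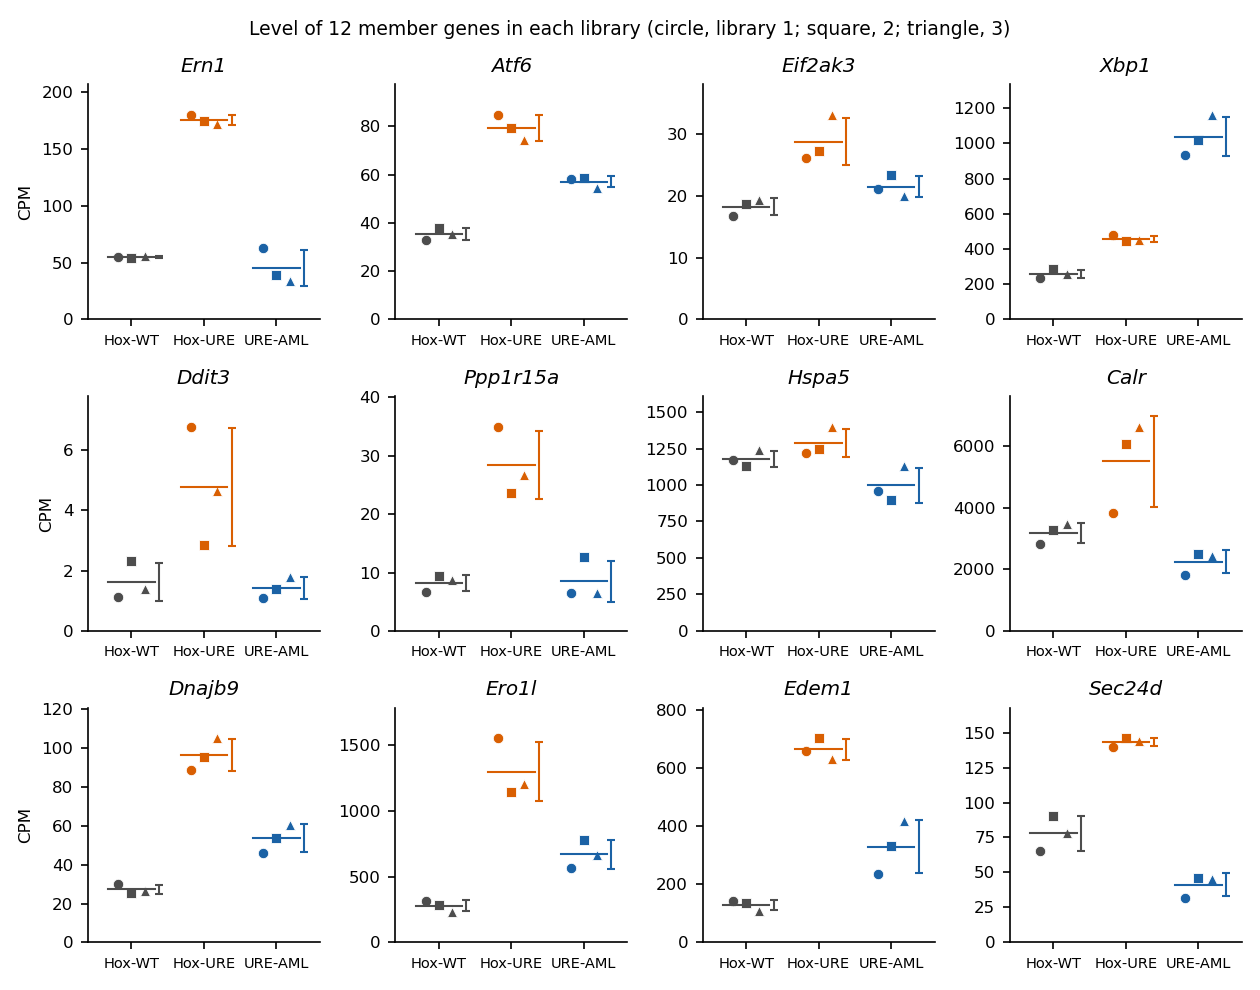
CPM of 12 members in each library of the 3 lines (x axis), with each y axis from 0. Points are libraries 1 (circle), 2 (square) and 3 (triangle), horizontal lines are means and the bars beside them are 1 SD (n = 3). *Ern1* sits at 172 to 180 CPM in Hox-URE against 54.5 to 56.3 in Hox-WT, and *Xbp1* is highest in URE-AML at 936 to 1160 CPM.

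Among the 8 chaperones, 2 (25%) were called higher in Hox-URE, near the 21.3% of all tested genes. *Hspa5* (ENSMUSG00000026864, chr2:34771970-34777547), which encodes BiP, the main ER chaperone of the HSP70 family and the usual gauge of ER stress, was at 1170, 1130 and 1240 CPM in the Hox-WT libraries, 1220, 1250 and 1400 in those of Hox-URE and 962, 899 and 1130 in those of URE-AML. The Hox lines overlapped, and the log2 fold change between them was 0.13 ± 0.11 (adjusted p = 0.352). *Calr*, the lectin chaperone calreticulin, was at 2840, 3270 and 3470 CPM in Hox-WT and 3830, 6060 and 6640 in Hox-URE. Library 1 of Hox-URE lay only a little above the Hox-WT range while the other two were far above it, with a log2 fold change of 0.79 ± 0.20 (adjusted p = 0.00842). *Manf*, an ER-resident protein that can also be secreted, was called at 0.59 ± 0.11 (adjusted p = 0.00148), a value so close to 1.5-fold that it was lost in 11 of 19 alternative analyses. The 6 members not called were *Hspa5*, *Hsp90b1* (the HSP90 of the ER), *Hyou1* (a nucleotide exchange factor of BiP), *Canx* (the membrane-bound lectin chaperone calnexin), *Creld2* and *Sdf2l1*, with log2 fold changes from -0.35 for *Hyou1* to 0.41 for *Creld2*.

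*Dnajb9* stood apart among the 4 J-domain co-chaperones, proteins that bring clients to BiP or regulate its cycle. It (ENSMUSG00000014905, chr12:44205559-44210326) was at 30.1, 25.6 and 26.3 CPM in the Hox-WT libraries, 88.7, 95.3 and 105 in those of Hox-URE and 46.2, 53.5 and 60.6 in those of URE-AML. Its product restrains IRE1α through BiP, and with no overlap between lines its log2 fold change was 1.82 ± 0.12 (adjusted p = 1.41e-06), the smallest p of any member in this comparison. *Dnajb11*, *Dnajc3* and *Dnajc10* were not called, with log2 fold changes of 0.24, 0.30 and 0.31.

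In disulfide formation, *Ero1l* (ENSMUSG00000021831, chr14:45283087-45318771), the oxidase that recharges protein disulfide isomerases (Ero1a in RefSeq), was at 316, 282 and 234 CPM in the Hox-WT libraries, 1550, 1140 and 1200 in those of Hox-URE and 562, 776 and 664 in those of URE-AML. Every Hox-URE library was above every library of the other lines, and the log2 fold change to Hox-WT was 2.22 ± 0.17 (adjusted p = 3.4e-06), a 4.67-fold difference. The isomerases that it serves showed smaller values. *Pdia3* was called at the edge of the threshold, 0.67 ± 0.26 (adjusted p = 0.0499), with overlapping libraries (268 to 448 CPM in Hox-WT and 408 to 748 in Hox-URE). *Pdia4*, *Pdia6* and *P4hb* were not called, at 0.48, 0.54 and 0.30.

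ER-associated degradation held 5 members of 8 called higher (62.5%), beside 21.3% of all tested genes. *Edem1* (ENSMUSG00000030104, chr6:108828641-108859356), a mannosidase-like protein that routes misfolded glycoproteins to disposal, was at 142, 136 and 109 CPM in the Hox-WT libraries, 658, 704 and 633 in those of Hox-URE and 237, 334 and 420 in those of URE-AML. Its log2 fold change of 2.37 ± 0.19 (adjusted p = 5.22e-06) was the highest of all 36 members between the Hox lines, a 5.16-fold difference without overlap. *Derl1*, a channel component of the disposal route, was at 156 to 180 CPM in Hox-WT and 293 to 416 in Hox-URE, with a log2 fold change of 1.06 ± 0.13 (adjusted p = 0.000109). It lies on chromosome 15, where the median log2 fold change over 511 tested genes was 0.33, and *Creld2* is the other member there. *Herpud1*, a membrane partner of the ubiquitin ligase complex, and *Syvn1*, the ligase itself, were called at 0.93 ± 0.13 and 0.61 ± 0.14 (adjusted p = 0.000213 and 0.00355). *Derl3* was called at 2.11 ± 0.68 (adjusted p = 0.0234) from levels of only 0.187 to 0.679 CPM in Hox-WT and 0.51 to 2.5 in Hox-URE that overlapped. *Sel1l*, the partner that stabilises the ligase, *Edem2* and *Derl2* were not called, at 0.23, -0.06 and 0.36.

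Of the 4 members at the ER membrane and in traffic, *Wfs1*, *Sec61b* and *Sec24d* were called higher (75%, beside 21.3% of all tested genes). *Wfs1* encodes wolframin, a protein of the ER membrane, and was at 3.34, 4.57 and 5.09 CPM in the Hox-WT libraries, 14.6, 15.1 and 16.6 in those of Hox-URE and 3.92, 4.95 and 3.95 in those of URE-AML. Its Hox-URE libraries were above all others, with a log2 fold change of 1.83 ± 0.19 (adjusted p = 2.5e-05). *Sec24d* (ENSMUSG00000039234, chr3:123267455-123365641), a cargo adaptor of the COPII vesicle coat, was at 65.5, 90.4 and 78.2 CPM in the Hox-WT libraries, 140, 146 and 144 in those of Hox-URE and 31.8, 46.2 and 45.6 in those of URE-AML. The 3 lines did not overlap, and Hox-URE exceeded Hox-WT by 0.88 ± 0.15 on the log2 scale (adjusted p = 0.000883). *Sec61b*, a subunit of the translocation channel, had a log2 fold change of 0.96 ± 0.14 (adjusted p = 0.000313), and *Ssr1*, a translocon-associated protein, had -0.07 (adjusted p = 0.521).

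**Figure D3:**
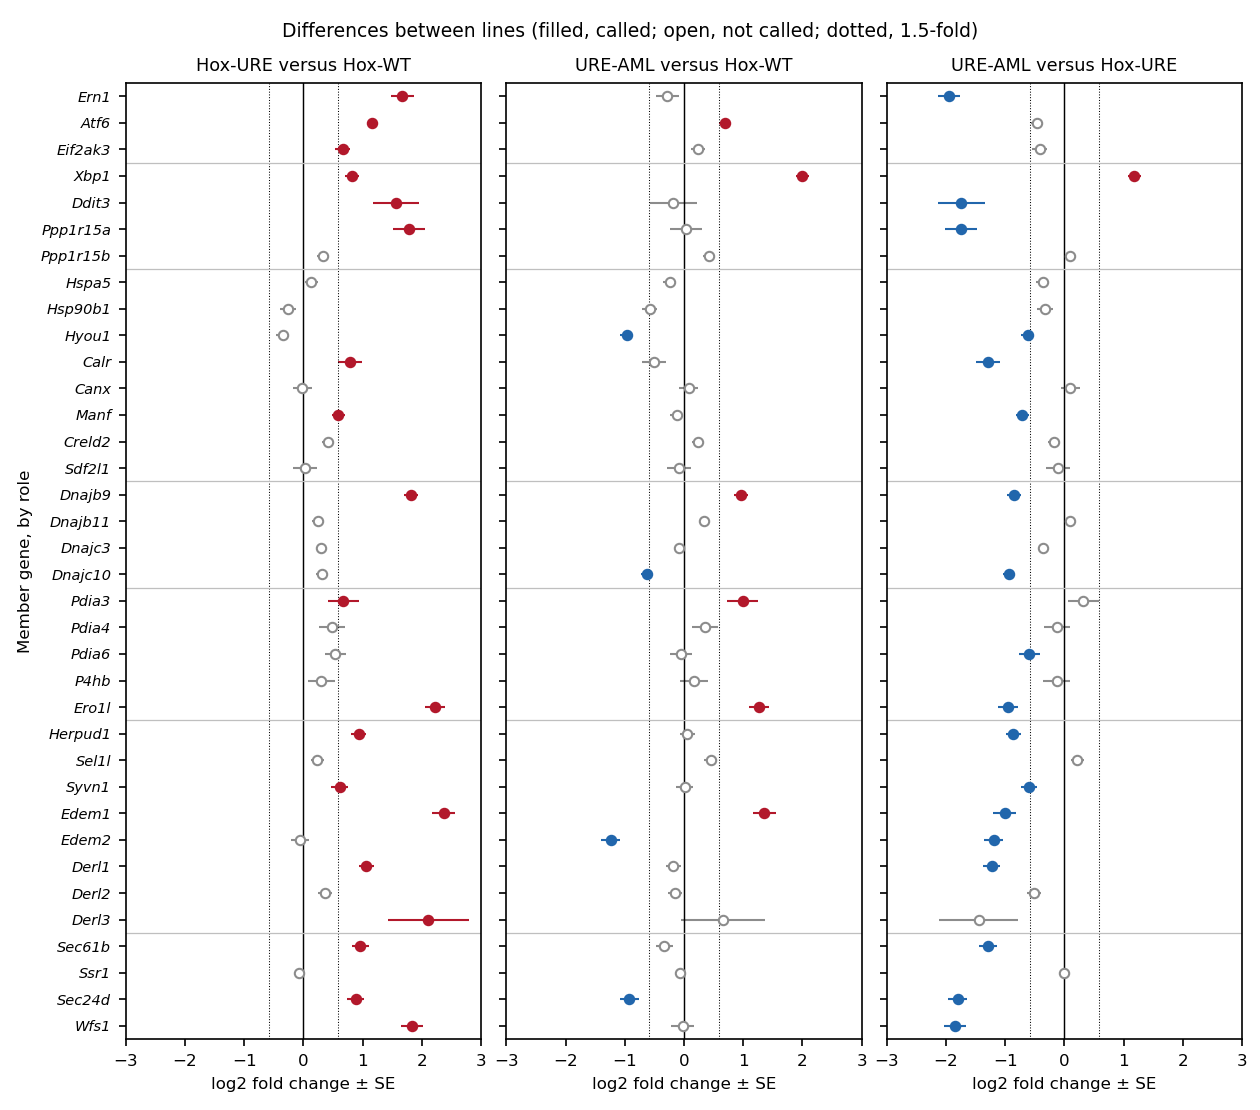
Log2 fold change ± SE of each member (rows, by role) in the 3 comparisons of lines (panels), with filled points for called members (red higher, blue lower), open points for members not called and dotted lines at 1.5-fold. The left panel holds 19 called points, all to the right of 0, the middle panel 6 to the right and 4 to the left, and the right panel 18 to the left and *Xbp1* alone to the right.

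Members with an ERSE match were set beside the others as a description. Without an ERSE here means without an exact match in the window. Between the Hox lines, 3 of the 9 ERSE members were called higher in Hox-URE (*Calr*, *Syvn1* and *Derl3*) with a median log2 fold change of 0.41. Of the 22 members with a window but no ERSE, 13 were called higher, and their median was 0.74, beside 21.3% of tested genes called higher. Between URE-AML and Hox-WT, where 43.2% of all tested genes were called, 0 of the 9 ERSE members were called by edgeR or DESeq2, with values from -0.58 to 0.66. Of these, 3 had an unadjusted p under 0.05 in edgeR, and *Hsp90b1*, at -0.58, was called in 8 of 19 alternative analyses. Of the 22 without an ERSE, 5 were called higher and 3 lower in that comparison, with a median of 0.05. Relative to Hox-URE, 3 of the 9 ERSE members were called lower in URE-AML with a median of -0.37, and 12 of the 22 without an ERSE were called lower and 1 higher with a median of -0.85, beside 22.4% of tested genes called lower.

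Of 81 other ER genes listed from the same functions, Hox-URE had 25 called higher and 2 called lower than Hox-WT, with a median log2 fold change of 0.35. These were 30.9% and 2.47%, beside 21.3% and 15.9% of all tested genes. *Qsox1*, a sulfhydryl oxidase, was at 1.24 to 3.56 CPM in Hox-WT and 32.7 to 76.2 in Hox-URE (log2 fold change 4.51 ± 0.40, adjusted p = 8.92e-06). *Trib3*, a target of ATF4 and CHOP, was at 3.22, 3.29 and 2.21 CPM in Hox-WT and 111, 27.2 and 16.7 in Hox-URE, where library 1 was far above the other two. *Atf4*, named after its values were seen, followed the same order within Hox-URE, at 394, 229 and 178 CPM against 97.7 to 115 in Hox-WT (log2 fold change 1.37 ± 0.25, adjusted p = 0.00108). *Ddit3* and *Ppp1r15a* also had their highest value in that library, whereas *Calr* and *Hsp90b1* had their lowest Hox-URE value there. In a separate list of 24 cytosolic and mitochondrial chaperones, of which 21 were tested, 3 (14.3%) were called higher and 5 (23.8%) lower, with a median of -0.38. *Hspa8*, the constitutive cytosolic HSP70, was at 4660 to 5250 CPM in Hox-WT and 2540 to 2900 in Hox-URE (log2 fold change -0.86 ± 0.14, adjusted p = 0.000529).

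Markers of other hematopoietic cells also differed between these lines, and their part in the members' differences was not tested. The summed level of 5 mast cell and basophil markers was 373 to 732 CPM for Hox-WT, 1400 to 5650 for Hox-URE and 24.9 to 55.1 for URE-AML, with 3, 4 and 2 of them above the floor of 3 counts, and *Fcer1a* was at 0 in both Hox lines. Among these, *Cpa3* had a mean of 548 CPM in Hox-WT and 2660 in Hox-URE. In URE-AML *Cpa3* was at 0.848 to 2.36 CPM, and the sum there was nearly all *Mcpt8*, which was called higher than in Hox-WT, at 23.5 to 50.2 against 5.4 to 13.3 CPM (log2 fold change 1.92 ± 0.46, adjusted p = 0.00449). For 6 granulocyte precursor markers, the sum was 5570 to 8950 CPM for Hox-WT, 2620 to 4000 for Hox-URE and 7960 to 18100 for URE-AML, with 5, 4 and 6 above the floor. The members of this list did not move together: mean *Mpo* was 5040 CPM for Hox-WT, 5.04 for Hox-URE and 192 for URE-AML, *Ctsg* was at 1990, 3330 and 3710 in the same order and made up most of the Hox-URE sum, *Elane* at 181, 9.29 and 7310 was the largest part of the URE-AML sum, and *Ltf* was at 0 in Hox-URE. Plasma and B cell markers, 7 in number, summed to 38.7 to 54.4 CPM for Hox-WT, 1.71 to 3.27 for Hox-URE and 5.57 to 14.9 for URE-AML, with 2 above the floor in each line, and *Pax5* was at 0 in Hox-URE and URE-AML. These markers also went opposite ways: *Sdc1*, most of the Hox-WT sum, and *Prdm1* were called lower in both other lines, *Cd79a* was called higher in Hox-URE at 1.09 to 2.61 against 0.112 to 0.25 CPM, and *Irf4* was at 0 in both Hox lines and at 4.42 to 12.9 CPM in URE-AML, most of the sum there. The 4 monocyte markers summed to 20.8 to 23.5, 840 to 939 and 13.3 to 22.5 CPM in the same order of lines. The Hox-URE sum was nearly all *Ccr2*, while *Irf8*, *Ly86* and *Csf1r* were called lower there than in Hox-WT. *Irf8* was at 5.4 to 8.71 CPM in Hox-WT and 0.124 to 0.204 in Hox-URE, and *Csf1r* was at 0.487 to 0.969 and 0. For 5 erythroid and megakaryocyte markers the sums were 4.05 to 6.29, 15.8 to 41.3 and 0.323 to 1.63 CPM. The Hox-URE sum was nearly all *Itga2b*, at 15.1 to 40.3 against 1.91 to 2.64 CPM in Hox-WT, while *Pf4* of the same list was called lower, at 0.182 to 0.46 against 1.76 to 3.11 CPM. Both T cell markers were at 0 in every library.

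In URE-AML, *Xbp1* was the member farthest above Hox-WT, and most members were not called. Compared with Hox-WT, 6 of 36 members were called higher and 4 lower, where the background was 43.2% called, with 23.0% higher and 20.2% lower, so neither share of members was above the background. The median log2 fold change of the members was -0.01, with 18 positive values, and 19 members had libraries that did not overlap, against 67.6% of all tested genes.

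The 6 members called higher were *Xbp1*, *Edem1*, *Ero1l*, *Pdia3*, *Dnajb9* and *Atf6*. *Xbp1* had a log2 fold change of 2.0 ± 0.11 (adjusted p = 1.73e-07), a 4-fold difference, and per kilobase of transcript it had a mean of 236 CPM for Hox-WT, 416 for Hox-URE and 945 for URE-AML. By this level per length it ranked 8 among the members of Hox-WT, 7 among those of Hox-URE and 2 among those of URE-AML, behind *Calr*, which ranked 1 in each line. *Edem1* was 2.56-fold and *Ero1l* 2.41-fold higher than in Hox-WT (adjusted p = 0.000138 and 9.83e-05). *Pdia3*, the isomerase that works with calreticulin and calnexin, was at 622, 669 and 949 CPM against 268, 408 and 448 in Hox-WT, a log2 fold change of 0.99 ± 0.26 (adjusted p = 0.00757). *Dnajb9* and *Atf6* had 0.97 ± 0.12 and 0.69 ± 0.09 (adjusted p = 7.42e-05 and 0.000115).

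The 4 members called lower were *Edem2*, *Hyou1*, *Sec24d* and *Dnajc10*. *Edem2* (ENSMUSG00000038312, chr2:155701677-155729475), a mannosidase that starts the trimming of misfolded glycoproteins, was at 218, 240 and 239 CPM in the Hox-WT libraries, 177, 233 and 261 in those of Hox-URE and 80.4, 103 and 111 in those of URE-AML. The Hox lines overlapped and URE-AML lay below both, 2.37-fold lower than Hox-WT (log2 fold change -1.24 ± 0.16, adjusted p = 7.51e-05). *Hyou1* (ENSMUSG00000032115, chr9:44379490-44392369) was at 607, 490 and 565 CPM in the Hox-WT libraries, 406, 411 and 488 in those of Hox-URE and 275, 272 and 302 in those of URE-AML, and the 3 lines did not overlap. Its URE-AML libraries were lower than those of Hox-WT, with a log2 fold change of -0.97 ± 0.11 (adjusted p = 3.89e-05). *Dnajc10* (ENSMUSG00000027006, chr2:80315466-80354043), a reductase that opens disulfides of proteins bound for degradation, was at 206, 213 and 205 CPM in the Hox-WT libraries, 228, 291 and 257 in those of Hox-URE and 129, 142 and 133 in those of URE-AML, with a log2 fold change of -0.63 ± 0.10 (adjusted p = 0.000315). *Sec24d*, called higher in Hox-URE, was called lower here at -0.92 ± 0.16 (adjusted p = 0.000534).

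Sensors and chaperones were mostly not called in this comparison. *Ern1* had a log2 fold change of -0.28 ± 0.19 (adjusted p = 0.225), and URE-AML library 1 decided this: without it the value was -0.60 and called (adjusted p = 0.000553). *Hspa5* was at -0.24 ± 0.11 (adjusted p = 0.0832). *Hsp90b1*, at -0.58 ± 0.13 (adjusted p = 0.00298), passed the test but fell short of 1.5-fold, and was called in 8 of 19 alternative analyses. Of the other ER genes, 15 of 81 were called higher and 7 lower, with a median of 0.06. These shares, 18.5% and 8.64%, were below the 23.0% and 20.2% of all tested genes. *Qsox1* was at 52.7 to 73.9 CPM, a range within that of Hox-URE, and had the largest rise above Hox-WT in this list (log2 fold change 4.67 ± 0.40, adjusted p = 4.46e-06). *Ero1lb*, the second oxidase of the *Ero1l* family, was at 27 to 44.1 CPM against 4.8 to 6.36 in Hox-WT (log2 fold change 2.68 ± 0.25, adjusted p = 6.99e-06). *Txndc5*, a disulfide isomerase, was at 39.1 to 54.1 CPM against 251 to 266 (-2.43 ± 0.14, adjusted p = 2.76e-07), and *Mzb1*, a co-chaperone of secretory B cells, was at 0 in all URE-AML libraries, at least 13.1-fold below Hox-WT. Of the cytosolic and mitochondrial chaperones, 2 (9.52%) were called higher and 8 (38.1%) lower, with *Hspa8* at -1.71 ± 0.14 (adjusted p = 3.5e-06).

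The lines that share the URE deletion differed from each other over many members. With URE-AML set against Hox-URE, 18 of 36 members were called lower and *Xbp1* alone was called higher, where the background was 42.7% called, with 22.4% lower and 20.3% higher. The median log2 fold change of the members was -0.60, with 7 positive values, and the libraries of 25 members did not overlap, which held for 62.8% of all tested genes. This comparison shares its Hox-URE libraries with the first one, so the values of both do not count as separate evidence.

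The URE-AML level of *Ern1* was 3.87-fold below that of Hox-URE (log2 fold change -1.95 ± 0.19, adjusted p = 1.41e-05), while *Atf6* and *Eif2ak3* passed the test without reaching 1.5-fold (-0.47 ± 0.09 and -0.42 ± 0.12, adjusted p = 0.00131 and 0.0141). *Xbp1* differed the other way, by 1.18 ± 0.11 (adjusted p = 8.03e-06), so that the 2 genes of this arm had opposite signs between these lines. *Ddit3* and *Ppp1r15a* were both called lower, at -1.74 ± 0.40 and -1.74 ± 0.27 (adjusted p = 0.00352 and 0.000324).

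The smallest p among the members called lower belonged to *Sec24d*, at -1.80 ± 0.16 (adjusted p = 5.96e-06), followed by *Ern1*, *Wfs1* (-1.85 ± 0.19, adjusted p = 1.76e-05) and *Dnajc10* (-0.94 ± 0.10, adjusted p = 2.09e-05). Degradation held 5 called members of 8 (62.5%), all lower, beside 22.4% of all tested genes. As log2 fold changes these were *Derl1* (-1.23, with a median of -0.39 over chromosome 15), *Edem2* (-1.19), *Edem1* (-1.01), *Herpud1* (-0.86) and *Syvn1* (-0.60). Among the chaperones, *Calr*, *Manf* and *Hyou1* were called lower, at -1.29 ± 0.21, -0.71 ± 0.11 and -0.62 ± 0.11 (adjusted p = 0.000391, 0.000354 and 0.000802), and *Hspa5* was at -0.37 ± 0.11 (adjusted p = 0.0147), short of 1.5-fold. *Ero1l* and *Dnajb9* were lower by 1.94-fold and 1.8-fold but above Hox-WT. Of the other ER genes, 8 of 81 (9.88%) were called higher and 22 (27.2%) lower, with a median of -0.26. Of the cytosolic and mitochondrial chaperones 1 (4.76%) was called higher and 4 (19%) lower, with a median of 0.03. The shares of all tested genes were 20.3% higher and 22.4% lower. *Edem3*, the last of the EDEM family, was at 110 to 120 CPM in libraries of Hox-WT, 213 to 259 in those of Hox-URE and 40.9 to 47.9 in those of URE-AML, with a log2 fold change of -2.40 ± 0.10 (adjusted p = 3.71e-08).

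By line mean, 26 of 36 members were highest in Hox-URE, 6 in URE-AML and 4 in Hox-WT. The same order was not counted over all tested genes, so these counts have no background beside them. The 6 highest in URE-AML were *Xbp1*, *Ppp1r15b*, *Canx*, *Dnajb11*, *Pdia3* and *Sel1l*, and of these only *Xbp1* was called between both pairs of lines that involve URE-AML. The 4 highest in Hox-WT were *Hsp90b1*, *Hyou1*, *Edem2* and *Ssr1*. Neighbouring lines in these orders often did not differ beyond their spread: the *Canx* libraries of all lines overlapped, at 390 to 466 CPM for Hox-WT, 340 to 476 for Hox-URE and 355 to 486 for URE-AML, and *Ssr1* lay at 472 to 493, 445 to 493 and 448 to 478 CPM.

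Summed over all 36 members, levels were 10800 to 12300 CPM for Hox-WT, 14700 to 19300 for Hox-URE and 10400 to 12800 for URE-AML. The 8 chaperones made up the largest part of this sum, at 7280 CPM in Hox-URE library 1 and 9770 and 10800 in libraries 2 and 3, against 6620 to 7430 in Hox-WT. That difference lay in *Calr*: without it the other 7 chaperones summed to 3450 to 4200 CPM in Hox-URE and 3580 to 3970 in Hox-WT, so the lines overlapped. The summed level of the 8 degradation genes was 785 to 844 CPM for Hox-WT, 1600 to 1700 for Hox-URE and 761 to 1030 for URE-AML, so that this group separated Hox-URE from both other lines in every library. *Edem1*, at means of 129 CPM in Hox-WT and 665 in Hox-URE, made up most of the gap to Hox-WT. Its mean in URE-AML was 330 CPM. Without *Edem1*, the other 7 degradation genes summed to 677 to 707 CPM for Hox-WT and 946 to 1040 for Hox-URE. In URE-AML they summed to 524 to 612 CPM.

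**Figure D4:**
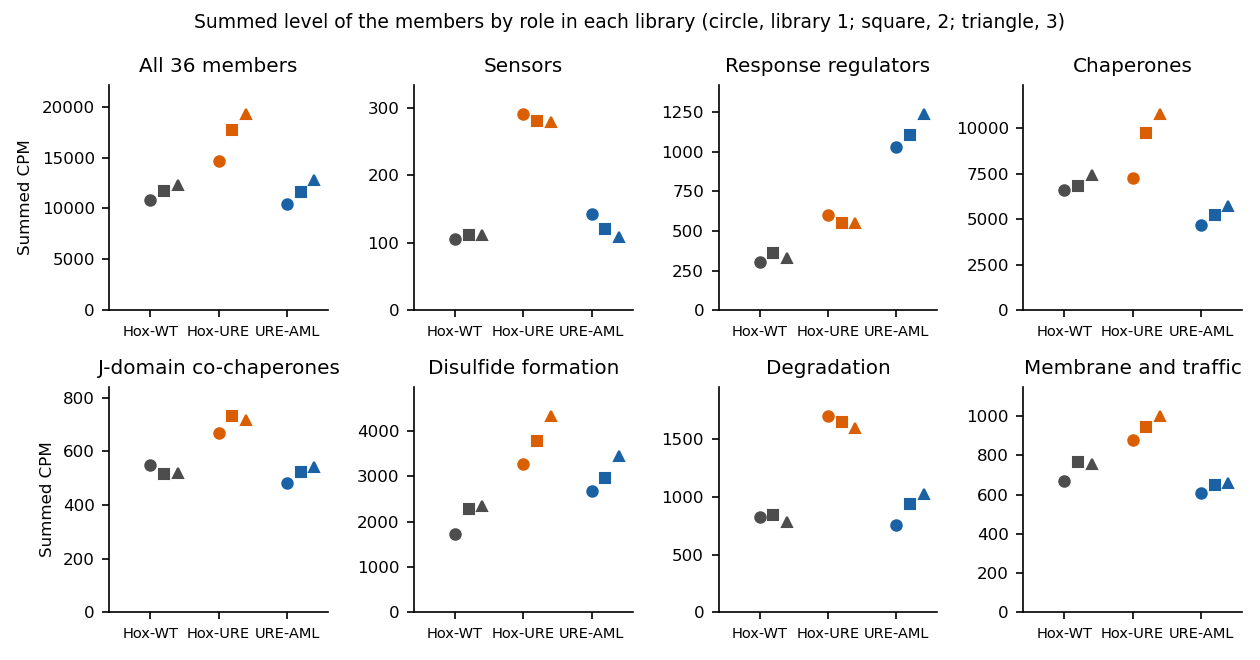
Summed CPM of all 36 members and of each role in each library of the 3 lines (x axis), with each y axis from 0 and libraries 1, 2 and 3 as circle, square and triangle. Degradation genes sit at 1600 to 1700 CPM in Hox-URE, response regulators are highest in URE-AML through *Xbp1*, and the chaperones of Hox-URE library 1 (7280 CPM) lie within the Hox-WT range.

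Some counts may hold reads of other loci. *Sec61b* and *Derl1* have near-identical copies among the annotated transcripts, at 0 to 3 counts in every library. *Derl2* overlaps *Mis12* and *Hsp90b1* overlaps 1810014B01Rik on the opposite strand. The libraries were stranded, but whether counting used the strand was not given in the sources used here.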

How the data were processed

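Poly-A RNA of 3 mouse lines was sequenced from directional libraries, 3 per line. Per the labels and the study's methods, the authors quantified reads with salmon (version not given in the sources used here; GRCm38) and summed them to genes with tximport. The deposited table holds the authors' estimated counts, 1 row per gene, before any scaling between libraries and all whole. Whether they were corrected for transcript length was not stated.

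Lines and library numbers came from the labels. Genes were kept by filterByExpr at a minimum count of 10, leaving 13082 genes and setting aside 0.0499% of counts. Library sizes were scaled by TMM (factors of 0.938 to 1.04), and genes varied within lines with a common biological coefficient of variation of 0.173. One quasi-likelihood model of all 9 libraries with line as its factor was fitted in edgeR 4.0.16 (R 4.3.3), and the 3 contrasts between lines were tested by two-sided F tests with Benjamini-Hochberg adjustment over all tested genes. A call needed more than a 1.5-fold difference at an adjusted p below 0.05. SE is the absolute log2 fold change over the square root of F. The CPM of a gene is its count over library size times TMM factor, so 3 counts, the floor used, equal 0.104 to 0.153 CPM. These floors cover counting error only.

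The fit was tested on simulated counts. Gene positions and lengths came from GENCODE M21 (GRCm38), promoters from RefSeq (GRCm38.p6). Alternatives were DESeq2 1.42.0, other scalings, filters and thresholds, a replicate block, only 6 libraries, and leaving out each library.

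Members and lists were chosen with earlier results of these data known. All members could be named; every library is shown for the sensors, *Xbp1*, *Ddit3*, *Hspa5* and the 4 called members with the smallest p per direction and comparison, and for others where a group is described. Of the other lists, the 3 called genes with the largest change per direction and comparison could be named. One marker gene is not reported here.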

Additional observations from a re-analysis of the deposited data

How the results depend on the processing

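Over 19 alternatives, 316 of 336 counts and medians kept their value within 1.5 times or within the spread between libraries, and of 2049 values for single members 1964 kept their direction and call, 55 lost a call, 30 gained one and 0 called values changed sign. With library size as the only scaling, the median of all genes moved by 0.11 in URE-AML against Hox-URE (by -0.08 in Hox-URE against Hox-WT), and the members' medians were -0.49 and 0.49. Requiring at least 10 counts in every library, which tests fewer genes, called 3200, 3602 and 3553 genes for Hox-URE against Hox-WT, URE-AML against Hox-WT and URE-AML against Hox-URE, in place of 4873, 5648 and 5591. Without a fold change threshold, 1 member (*Hyou1*) was called lower for Hox-URE relative to Hox-WT, and of the other ER genes 40 were called higher and 5 lower there. The same setting called 14 of them lower for URE-AML against Hox-WT, and for URE-AML against Hox-URE it called 16 higher and 39 lower. A test against a fold change of 1.5 called 13 members higher and 0 lower for Hox-URE relative to Hox-WT. It called 4 members higher and 3 lower for URE-AML relative to Hox-WT, and 1 higher and 14 lower relative to Hox-URE. Of the other ER genes it called 16 higher and 1 lower for Hox-URE relative to Hox-WT. For URE-AML it called 8 of them higher relative to Hox-WT and 4 relative to Hox-URE.

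Leaving out 1 library at a time in Hox-URE against Hox-WT gave 15 to 20 members called higher, a members' median of 0.50 to 0.70, and 1 to 3 other ER genes called lower. Of the 19 members called higher, 14 were called in all 9 of these fits, and the 5 others were *Derl3*, *Syvn1*, *Pdia3*, *Eif2ak3* and *Manf*. In URE-AML against Hox-URE, 15 of the 18 members called lower were called in all 9, with *Pdia6*, *Syvn1* and *Hyou1* as the others. The cause of these changes was not tested.

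With a replicate block, the counts of members called were the same as without it (19 higher and 0 lower, 6 higher and 4 lower, and 1 higher and 18 lower in the 3 comparisons), but between URE-AML and Hox-URE *Pdia6* lost its call (-0.58) and *Derl3* gained one (-1.33), and 4908, 5679 and 5584 genes were called. Deviations of same-numbered libraries correlated at 0.271, 0.099 and 0.174 between the Hox lines and at 0.010 to 0.092 in pairs with URE-AML, so the numbers were not taken to pair the libraries. Each Hox-WT library correlated best with its own number in Hox-URE, a hint from the data only. The libraries of both Hox lines also correlated best with their own number in URE-AML. There the margin was as small as 0.010 against 0.009, for Hox-WT library 1.

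Depth limits *Derl3* and *Ddit3*, the members with the fewest counts. Each line is 1 line, so no value speaks to other lines of the genotype.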

Other observations

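Library 1 had the lowest of the 3 values in all 3 lines for 11 of 36 members (30.6%), against 1321 of 13082 tested genes (10.1%). These were *Calr*, *Hsp90b1*, *Pdia3*, *Pdia6*, *P4hb*, *Edem2*, *Derl3*, *Sec61b*, *Ssr1*, *Sec24d* and *Wfs1*. The opposite, library 1 highest in all 3 lines, held for 1 member (*Derl2*, 2.78%) and for 10.4% of tested genes. What the number stands for is not given in the sources used here.

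*Hspa1b*, an inducible cytosolic HSP70 gene, differed in sign from *Hspa8* between the Hox lines. It was at 5.55, 6.86 and 5.74 CPM in Hox-WT, 28.5, 18.7 and 21.4 in Hox-URE and 2.14, 1.90 and 1.76 in URE-AML, so it was called higher in Hox-URE (log2 fold change 1.92 ± 0.18 (SE), edgeR adjusted p = 1.47e-05) and lower in URE-AML (-1.64 ± 0.20, adjusted p = 5.85e-05) than in Hox-WT. *Hspa8* was called lower in both lines than in Hox-WT. *Hspa1a* was called higher than in Hox-WT in both lines, from 1, 0 and 0 counts in Hox-WT and 10, 5 and 2 in URE-AML (adjusted p = 0.00499), so the pair differed in sign between URE-AML and Hox-WT. *Hspa1b* and *Hspa1a* are near-identical, and reads can be split between them.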
